A study of Drosophila melanogaster with 2 samples.

Results

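The glial genes described here are 10 genes of Drosophila melanogaster named in a fixed list, among 13968 protein-coding genes on the chromosome arms. The early fate genes are gcm, gcm2 and repo. The 7 differentiation genes are moody, Gli, nrv2 and Nrx-IV of the blood-brain barrier and its septate junctions, Gs2 and Eaat1 of glutamate handling, and wrapper of neuron-glia contact. Each gene was examined over its body and 2 kb on each side, which is called its locus below. All 10 names matched the annotation.

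The data are a chromatin immunoprecipitation with sequencing (ChIP-seq) of Buttonless (btn), a homeodomain protein, from whole embryos of mixed sex at 0 to 14 hours. The embryos carried btn fused at its C-terminus to an enhanced green fluorescent protein (eGFP) tag, in 1 transgenic line, and the antibody was against GFP. There was 1 group with 2 biological replicates, numbered 2 and 3 in the labels. No untagged line or other genotype was analysed here, whole embryos mix glia with every other tissue, and fewer cells with a bound region cannot be told apart from weaker binding in each cell.

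Insect glia insulate neurons, clear transmitters and build the blood-brain barrier. In the fly embryo the zinc-finger factor gcm and its paralogue gcm2 start the glial programme in the lateral glia, and repo, a homeodomain factor, acts below them to carry it to differentiation. Midline glia form without this pathway, and wrapper is a gene of that type. btn itself is known for the dorsal median cells, mesodermal cells at the midline that help to guide axons.

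The authors deposited 4 lists in the dm6 build that were used here. A list of 30000 candidate regions was given for each replicate and for the pool of both, and a list of 2153 optimal peaks held the regions that passed the authors' reproducibility threshold. The 2153 optimal peaks were the 2153 strongest regions of the pooled list, with signals of 70.5 to 1220. Signal is the peak caller's own value per region and is used only to order regions within a list, rank 1 being the strongest. No list gives read counts, so the depth behind each value is unknown.

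Optimal summits lay in the loci of 5 differentiation genes and of none of the 3 early fate genes. Of the 10 glial genes, 5 had an optimal summit in the locus, against 18.7% of all protein-coding genes and 21.2% of the 4886 genes in the members' range of lengths (2248 to 10472 bp). The 5 were moody, Gli, nrv2, Gs2 and wrapper, which is 5 of the 7 differentiation genes, and nrv2 had 2 summits. Of these 6 summits, 2 lay nearest to a TSS of another gene, at wrapper and in the flank of nrv2. None of the 3 early fate genes had an optimal summit. A count of 0 among 3 genes, of which gcm and gcm2 lie close together on 2L, cannot be told apart from shares of 18.7% and 21.2%. Genes are not replicates and the members were chosen with earlier results known, so neither the count nor the split was tested.

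Within 1 kb of an annotated transcription start site (TSS) of the gene, 4 of the 10 had an optimal summit, against 10.8% of all protein-coding genes. These 4, moody, Gli, nrv2 and Gs2, all have several annotated TSSs. Of genes in the members' length range with 2 or more TSSs, 20.2% had such a summit, and of those with 1 TSS, 9.69%. Eaat1 is the member with several TSSs and no summit. The members with 1 TSS, namely gcm, gcm2, repo, Nrx-IV and wrapper, had none within 1 kb of it, so the early fate genes differ from most of the differentiation genes in TSS number as well as in role.

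**Figure D1:**
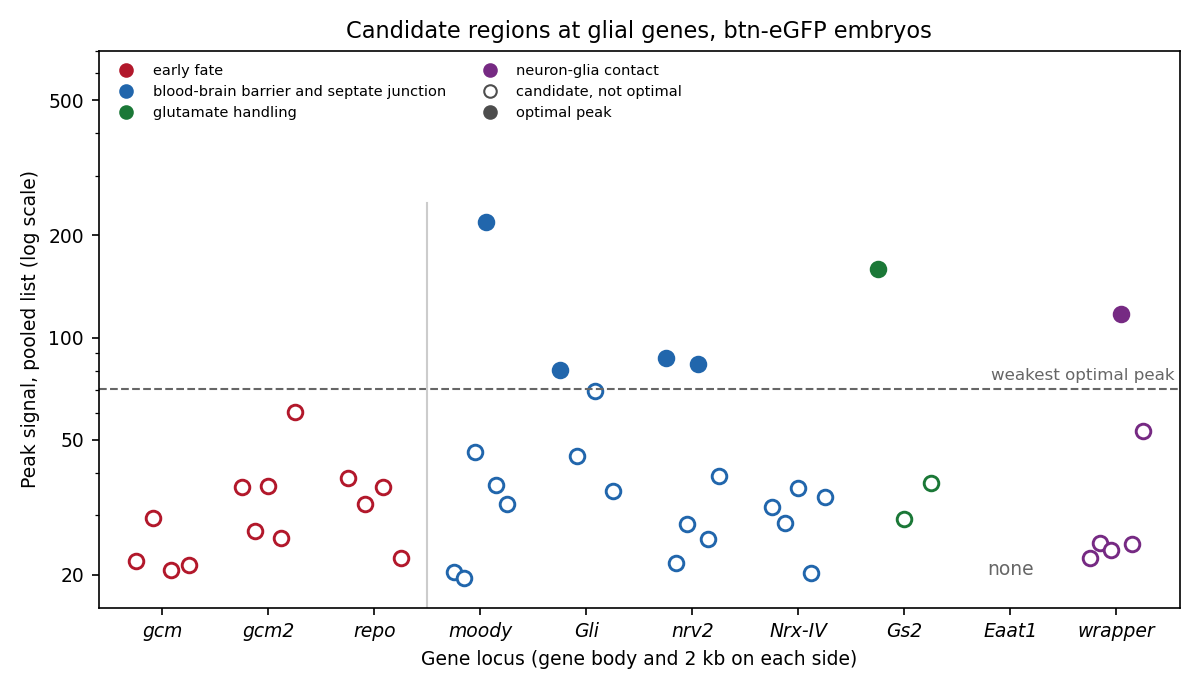
Signal of each pooled candidate region (y axis, authors' peak value, log scale) whose summit lies in the locus of each glial gene (x axis); points within a gene run in genomic order, colours give the role, filled points are optimal peaks, and the dashed line is the weakest optimal peak. The 6 filled points, from 80.6 at Gli to 219 at moody, all lie in loci of differentiation genes, and 2 of them lie nearest to a TSS of another gene. The strongest early fate point is 60.6 in the gcm2 locus, nearest to a TSS of Trx2.

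The 4 promoter peaks did not sit on a TSS but beside it, 153 to 512 bp away, in intron sequence. Of all optimal peaks, 20.1% were within 100 bp of a protein-coding TSS. The sequences around these 4 summits (100 bp on each side, plus strand, dm6, read from the RefSeq Release 6 genome) are printed because they are the stretches on which the calls at the glial genes' own promoters rest. None of the 4 windows touches an annotated exon. Capitals mark matches, on either strand, of 6 words. TAATTA is a core site of many homeodomain proteins, CAATTA a site known for Repo, GAGAGAG a repeat of the kind bound by GAGA factor, and ATGCGGG a core of the Gcm site. GAGAG, which lies inside GAGAGAG, and GTGTGTG were added after the sequences had been read.
moody, chrX:2050173-2050373: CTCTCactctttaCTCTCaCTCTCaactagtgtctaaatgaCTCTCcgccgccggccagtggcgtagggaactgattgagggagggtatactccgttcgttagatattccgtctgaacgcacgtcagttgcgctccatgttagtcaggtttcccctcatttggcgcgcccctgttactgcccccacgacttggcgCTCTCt
Gs2, chrX:11423244-11423444: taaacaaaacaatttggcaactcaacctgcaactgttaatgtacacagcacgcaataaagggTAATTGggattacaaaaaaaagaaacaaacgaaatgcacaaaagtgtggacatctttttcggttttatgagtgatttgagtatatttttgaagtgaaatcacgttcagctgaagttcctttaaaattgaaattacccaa
nrv2, chr2L:6795008-6795208: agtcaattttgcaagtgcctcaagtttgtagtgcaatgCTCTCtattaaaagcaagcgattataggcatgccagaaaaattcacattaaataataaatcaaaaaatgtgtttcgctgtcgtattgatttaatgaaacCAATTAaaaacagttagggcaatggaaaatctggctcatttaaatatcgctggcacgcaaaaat
Gli, chr2L:15761882-15762082: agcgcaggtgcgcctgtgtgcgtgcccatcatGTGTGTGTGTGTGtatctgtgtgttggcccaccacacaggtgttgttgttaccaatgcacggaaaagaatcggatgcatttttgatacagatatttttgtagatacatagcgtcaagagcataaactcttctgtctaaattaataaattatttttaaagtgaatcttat

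TAATTA was in none of the 6 optimal windows at glial genes, and 12.9% of all optimal windows hold it. CAATTA was in 2 of the 6, the intron peak of nrv2 and the peak of Gs2, beside 16.9% of all optimal windows. ATGCGGG was in none, beside 0.743% of all. GAGAGAG was in 1 of the 6, the peak beside wrapper, beside 5.57% of all. The shorter GAGAG was in 3, at moody, the intron of nrv2 and wrapper, beside 27.6% of all, and GTGTGTG in 1, at Gli, beside 7.52%.

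The moody window thus held several CTCTC runs and no homeodomain word, and the Gs2 window a single CAATTA on the minus strand. The windows also differed in base composition: GC content was 54.7% at moody, 39.8% at Gli, 33.3% at the intron peak of nrv2 and 32.8% at Gs2, with a mean of 40.9% ± 9.27 (SD, n = 6) over all 6 glial windows, beside 38.6% ± 6.87 (SD, n = 2153) over all optimal windows. Among the 43 pooled candidates of the glial loci, TAATTA was in 5 (11.6%, beside 9.17% of all pooled candidates) and CAATTA in 10 (23.3%, beside 14.3%). Word matches are descriptions of letters, with no test.

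The early fate genes held candidates below the optimal threshold and no optimal peak. At gcm (FBgn0014179, chr2L:9579498-9581745, minus strand) the pooled list had 4 candidates with signals of 20.7 to 29.5. The strongest, in a coding exon 333 bp downstream of the TSS, ranked 12782, and gcm's signal exceeded that of 26.5% of the 11442 protein-coding genes with any candidate in the locus. Replicate 2 ranked its matching region 16946 and replicate 3 ranked it 22069. Of the 4, it was the only candidate matched in both replicates.

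At gcm2 (FBgn0019809, chr2L:9608562-9612706, plus strand) there were 5 pooled candidates, and the strongest had a signal of 60.6 and rank 2831. This summit lay beyond the 3′ end of gcm2, in the 5′ UTR of the next gene, Trx2, 66 bp from a Trx2 TSS, with ranks of 6053 in replicate 2 and 2277 in replicate 3. It was stronger than the strongest candidate of 71.9% of genes with any. The pooled candidate nearest to gcm2's own TSS lay 1258 bp upstream of it and had a signal of 36.4 (rank 7935). Of the others, 3 were in coding exons of gcm2, signals 25.7 to 36.5, and had a match in replicate 2 but none in replicate 3. The strongest replicate 2 candidate of the locus, at rank 4481, was in a coding exon of gcm2 and not at Trx2. Replicate 3 had a candidate 92 bp downstream of the gcm2 TSS, with a signal of 27.2 and rank 4701, and neither replicate 2 nor the pooled list has a summit within 1 kb of that TSS.

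At repo (FBgn0011701, chr3R:18236192-18239602, plus strand) all 4 pooled candidates were in coding exons, with signals of 22.5 to 38.6. The strongest, 1000 bp downstream of the TSS, ranked 6933 in the pool, 22838 in replicate 2 (summit 172 bp away) and 5442 in replicate 3 (summit 88 bp away). It was stronger than the strongest candidate of 46.5% of genes. The 2 candidates beyond the 3′ end lay in coding exons of the neighbour CG7156. Each of the 4 ranked as stronger in replicate 3 than in replicate 2, and the 2 beyond the 3′ end match the same replicate regions.

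Beyond the locus, the nearest optimal peak to gcm was 9534 bp from the gene, 307 bp from a TSS of brwl (signal 114). The nearest to gcm2 was 20630 bp away, by Apoltp (signal 139), and the nearest to repo was 15796 bp away, 129 bp from a TSS of CG7183 (signal 156). No early fate gene gained an optimal summit when the flank was widened to 5 kb or when the 2153 strongest candidates of either replicate were used alone.

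**Figure D2:**
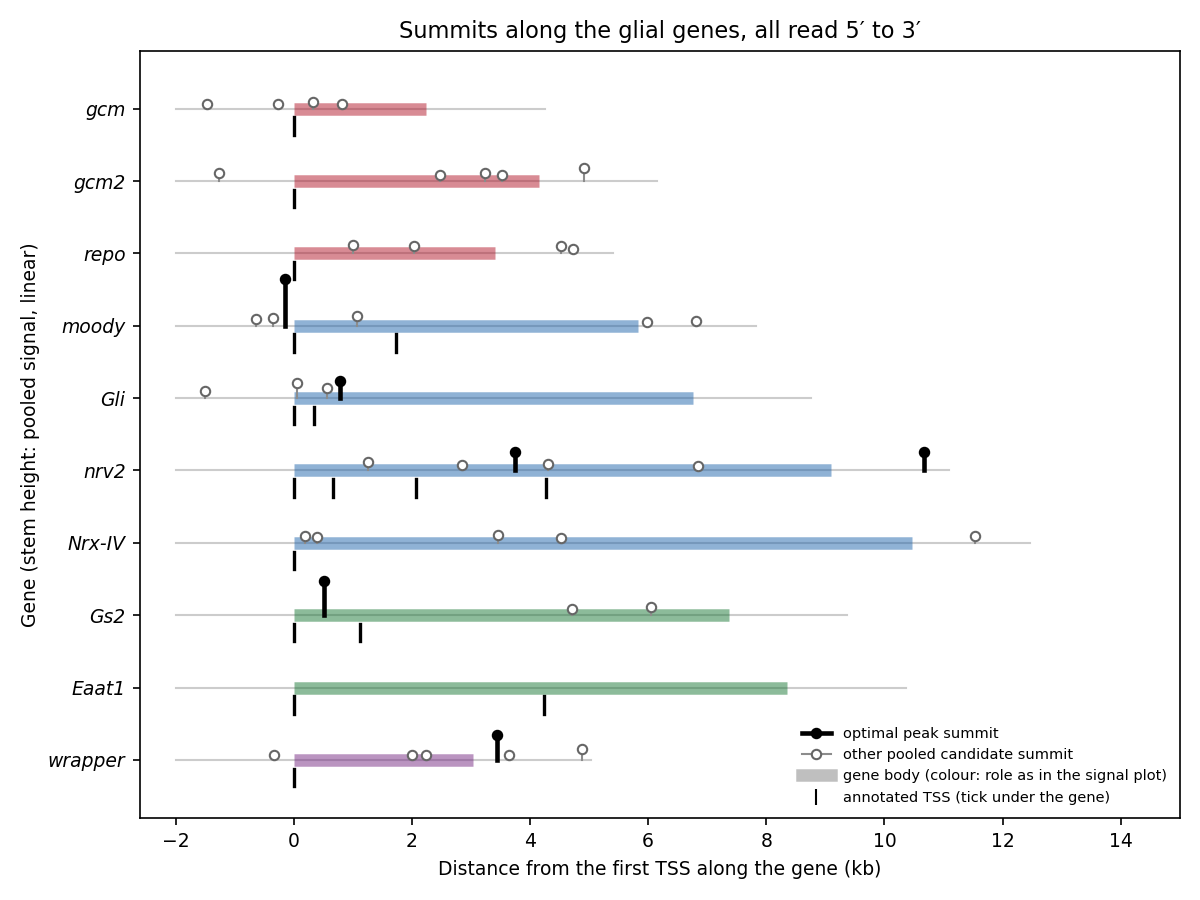
Position of each pooled candidate summit along each gene (x axis, kb from the gene's first TSS, read 5′ to 3′); bars are gene bodies, thin lines the 2 kb flanks, ticks below the annotated TSSs, and stem height the pooled signal on a linear scale. Filled stems, the optimal peaks, stand near a TSS at moody, Gli, Gs2 and inside nrv2, and beyond the 3′ end at nrv2 and wrapper.

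Candidates were no sparser at the early fate genes. Their loci held 13 pooled summits in 21.8 kb (5.96 per 10 kb), and the differentiation loci held 30 in 78.9 kb (3.80 per 10 kb). These 2 rates are totals over each group. The median per gene was 4.99 per 10 kb over the members, 3.16 over all protein-coding genes and 3.54 over genes in the members' length range. A TSS of another gene was the nearest for 6 of the 13 early fate summits and 12 of the 30 differentiation summits. The median signal was 29.5 in the early fate loci and 34.6 in the differentiation loci. Most pooled early fate candidates were in coding exons. Of 13 pooled candidates in the early fate loci, 9 were in coding exons, 3 were intergenic and 1 was in a 5′ UTR. Of 30 in the differentiation loci, 6 were in coding exons, 16 in introns, 5 in 5′ UTRs and 3 were intergenic. In replicate 3 alone, 5 of 10 early fate candidates were in coding exons and 2 in introns, and 6 of 34 differentiation candidates were in coding exons and 16 in introns. Over the genome 26.6% of pooled candidates and 0.882% of optimal peaks were in coding exons, and 37.1% of pooled candidates and 49.2% of optimal peaks in introns. Candidates of a locus share their gene, and exon and intron lengths differ among the genes, so these counts were not tested.

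The strongest peak among the 10 glial genes was at moody, which encodes a G protein-coupled receptor of the glia that form the blood-brain barrier. The gene (FBgn0025631) lies at chrX:2044292-2050120 on the minus strand, and it overlaps CG4313, which is on the opposite strand. The optimal peak (chrX:2050169-2050383) had its summit 153 bp upstream of the distal moody TSS, in an intron of CG4313, and a signal of 219, rank 233 in the pool. In replicate 2 the matching region had a signal of 114 and rank 212, and in replicate 3 a signal of 109 and rank 242. Both replicates thus ranked it close to its pooled rank, and the replicate summits were 11 and 7 bp from the pooled one. The moody signal exceeded that of 96.7% of genes with a candidate. A weaker candidate lay in an intron, 654 bp upstream of the proximal TSS, with a signal of 46.0 and ranks of 3091 in replicate 2 and 15753 in replicate 3.

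Gs2 (FBgn0001145), the glutamine synthetase that converts glutamate taken up by glia, had the next strongest peak. The gene lies at chrX:11422832-11430197 on the plus strand, and the optimal peak (chrX:11423139-11423548, signal 159.5, rank 456) had its summit in an intron. It was 512 bp downstream of the distal TSS and 613 bp upstream of the proximal TSS. Replicate 2 gave a signal of 81.8 and rank 449, and replicate 3 a signal of 78.0 and rank 496. The replicates ranked it almost alike, and it exceeded 94.1% of genes with a candidate. The other 2 pooled candidates of Gs2 were weak, at 29.3 and 37.4, and lay in introns over 3 kb from either TSS.

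Gli (Gliotactin, a protein of tricellular junctions; FBgn0001987, chr2L:15756002-15762758, minus strand) was close to the threshold. Its optimal peak had its summit in an intron 426 bp downstream of the proximal TSS, with a signal of 80.6 and rank 1712. In replicate 2 it ranked 1703 (signal 40.7), and in replicate 3 it ranked 2227 (signal 38.4), just outside the 2153 strongest there. A further region at Gli, 56 bp downstream of the distal TSS in a 5′ UTR, had a signal of 69.7 and rank 2203, just under the weakest optimal peak at 70.5. This region ranked 2558 in replicate 2 and 2557 in replicate 3. The replicate summits matched to the optimal peak of Gli were 110 and 70 bp from the pooled summit, the widest offsets among the 6 peaks.

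nrv2, a beta subunit of the sodium and potassium pump that is also needed for septate junctions, was the member with 2 optimal summits, a number reached by 3.87% of protein-coding genes. The gene (FBgn0015777) lies at chr2L:6789770-6798862 on the minus strand and has 4 annotated TSSs. The first peak was in an intron, 509 bp upstream of the most proximal TSS, with a signal of 83.8 and rank 1587. It ranked 3069 in replicate 2 (signal 29.4) and 1829 in replicate 3 (signal 42.2). The second was intergenic, beyond the 3′ end of nrv2, with a signal of 87.1 and rank 1488, and ranked 1062 in replicate 2 (signal 52.6) and 2693 in replicate 3 (signal 34.9). Each nrv2 peak was thus among the 2153 strongest of only 1 replicate, and not the same one. The TSS nearest to the second peak is that of nrv1, another beta subunit gene, 1332 bp away.

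Nrx-IV and Eaat1 had no optimal peak. Nrx-IV (Neurexin IV, a transmembrane protein of septate junctions that also binds Wrapper at the midline; FBgn0013997, chr3L:12146519-12156990, plus strand) had 5 pooled candidates with signals of 20.3 to 36.0. The strongest ranked 8110 and lay in a coding exon of CG32099, a gene inside Nrx-IV, and it ranked 13877 in replicate 2 (summit 196 bp away) and 5994 in replicate 3 (same summit). It was stronger than the strongest candidate of 41.5% of genes with any, a smaller share than for gcm2 or repo. Near the TSS, pooled summits lay 190 bp (signal 31.7) and 391 bp (signal 28.5) downstream of it. Replicate 3 had regions at 110 bp (rank 8525) and 366 bp (rank 4735), and replicate 2 had 1 region, at 209 bp (rank 28329). The nearest optimal peak was 21355 bp from the gene, at yps.

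Eaat1, the glutamate transporter of glia (FBgn0026439, chr2L:9333567-9341925, plus strand), was the emptiest of the 10 loci. It had 0 pooled candidates and 0 in replicate 2. Replicate 3 had 2, both weak, with ranks of 18391 and 24164. Any pooled candidate in the locus was present for 9 of the 10 members, against 81.9% of protein-coding genes, and 9.62% of genes in the members' length range lack one. The nearest optimal peak to Eaat1 was 107787 bp away, at numb. Among the 10 genes it was the single one with no optimal peak within 50 kb, where the others had 1 to 5.

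The peak assigned to wrapper lay at the next gene. wrapper encodes an immunoglobulin superfamily protein with which midline glia ensheathe commissural axons, and the gene (FBgn0025878) is at chr2R:22379637-22382675 on the plus strand. The optimal summit was 407 bp beyond its 3′ end, 3445 bp downstream of its TSS and 52 bp from the TSS of CG13506, with a signal of 117 and rank 838. In replicate 3 the matching region ranked 433 with a signal of 83.1, and in replicate 2 it ranked 4182 with a signal of 25.2. This was the largest disagreement among the 6 glial peaks: the larger rank was 9.66 times the smaller, and 99.3% of the 2152 optimal peaks that could be matched in each replicate had a smaller ratio (median 1.55). At wrapper's own TSS the strongest candidate had a signal of 22.4, 325 bp upstream, and ranked 22696.

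**Figure D3:**
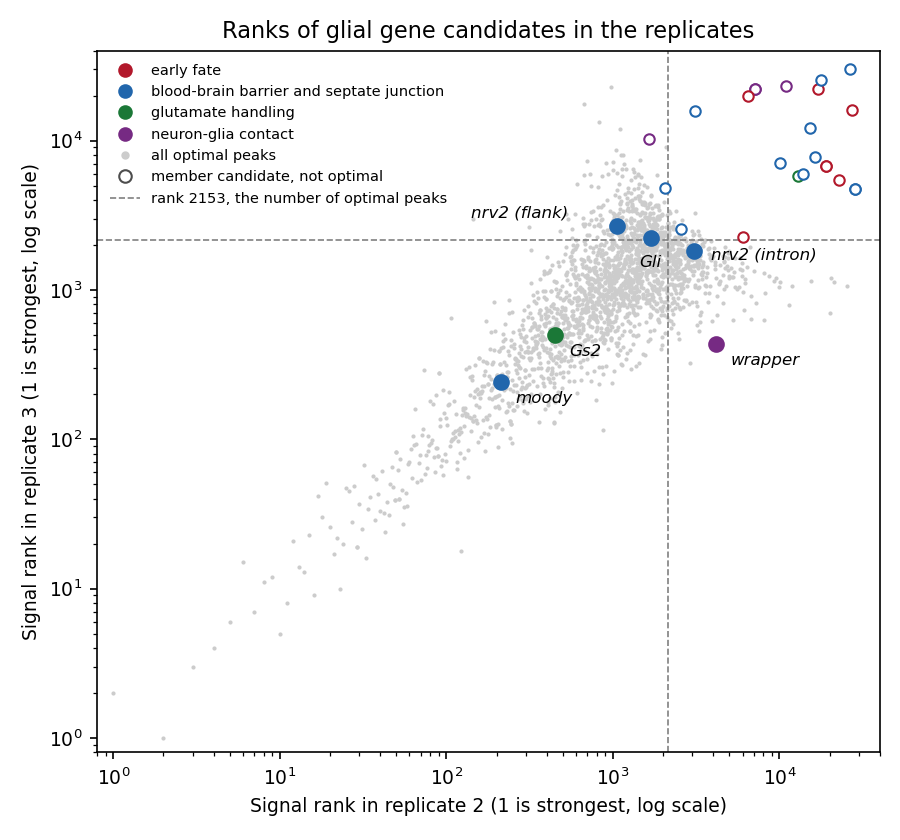
Signal rank in replicate 2 (x axis) against rank in replicate 3 (y axis), both log scales with 1 as the strongest, for pooled candidates of glial loci matched in both replicates, with all optimal peaks in grey and dashed lines at rank 2153; filled points are optimal, colours give the role, and points of candidates that match the same replicate regions coincide. moody and Gs2 lie near the diagonal, wrapper far from it (4182 in replicate 2, 433 in replicate 3), and no early fate point is stronger than rank 6053 in replicate 2 or rank 2277 in replicate 3. Candidates matched in a single replicate are not drawn, among them those matching the gcm2 region of rank 4481 in replicate 2.

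Of the 6 glial peaks, 2 were among the strongest regions of each replicate. These were moody and Gs2, which matched 1 of the 2153 strongest candidates in both replicates, where 70.3% of all optimal peaks did. With the strongest candidates of replicate 2 alone, 5 members had a summit in the locus, against 18.7% of protein-coding genes. At wrapper that call came from another region, in an intron of CG13506, which ranked 1643 in replicate 2 and overlapped a region of rank 10192 in replicate 3 with its summit 270 bp away. With replicate 3 alone, 4 members had one, against 18.7%, and Gli was the member not called.

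Among all pooled candidates of the glial loci, 32 of 43 (74.4%) overlapped a candidate in both replicates, and genome-wide 50.7% of 30000 did. The share was 7 of 13 in the early fate loci, where 4 more had a match in replicate 2 alone, and 25 of 30 in the differentiation loci. Over the 32 matched in both, the ranks had a Spearman rho of 0.556, and over the 15208 matched genome-wide 0.566. Neighbouring candidates can match the same replicate region and a candidate's signal affects whether it is matched, so these values are descriptions only.

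Optimal peaks were also present at fate and barrier genes outside the 10. A wider set of 47 genes in 4 lists had 16 with an optimal summit in the locus (34.0%) and 6 with one within 1 kb of a TSS, beside 18.7% and 10.8% of all protein-coding genes. Of these 47 genes, 19 are longer than the longest member. Glial fate regulators and cofactors had 7 of 11, mostly in long genes (median 23277 bp) and at a distance from the TSS. zfh1 (a zinc-finger and homeodomain factor) had a signal of 228 in an intron 1479 bp from a TSS, nkd (naked cuticle, an inhibitor of Wnt signalling) 191 at 20443 bp and pnt (pointed, an ETS factor of glial differentiation) 148 at 12197 bp. pros (prospero, an asymmetrically inherited fate factor) had 2 optimal summits, the stronger (124) in its 3′ UTR and the other within 1 kb of a pros TSS. The 7 include kn (named after its values were seen), whose summit lay beyond the 3′ end, 41 bp from a TSS of BEAF-32 and 25685 bp from that of kn. The early fate members, with 0 of 3, are 2248 to 4145 bp long.

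Septate junction and blood-brain barrier genes had 7 of 18 (38.9%), beside 18.7% of all protein-coding genes. Within 1 kb of a TSS, 3 of the 18 had a summit, beside 10.8% of all protein-coding genes. Atpalpha, the alpha subunit of the pump that nrv2 belongs to, had a signal of 95.2 at 191 bp from a TSS, and pck (a claudin of septate junctions) 84.6 at 45 bp. The third was Mcr (named, like Bsg, after its values were seen), with 71.3 at 359 bp from its TSS and 79 bp from a TSS of Bsg. The peak beyond the 3′ end of Gbeta13F (signal 242) was 155 bp from a TSS of Gapdh2, and that near bou (126) was 246 bp from a TSS of ogre. Genes for transporters and metabolism of glia had 0 of 9, and 1 of 9 by each replicate alone, Ldh by replicate 2 and Indy by replicate 3. For each of these 3 calls the share of all protein-coding genes was 18.7%. Ensheathing, cortex and phagocytic glia had 2 of 9 (22.2%), close to the 18.7% of all protein-coding genes. These were ths (an FGF ligand, signal 166) and NimC4 (a phagocytosis receptor, signal 132). A list of neuronal differentiation genes had 4 of 14, beside 18.7% of all protein-coding genes. These neuronal genes are long, with a median of 32727 bp. Among the 4, elav (an RNA-binding protein of neurons, signal 133) had the stronger of its 2 optimal peaks 225 bp from a TSS. VAChT and ChAT share 1 region (signal 116), and the peak near nSyb (85.4) was 136 bp from a TSS of Bgb. None of these lists was tested against another.

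**Figure D4:**
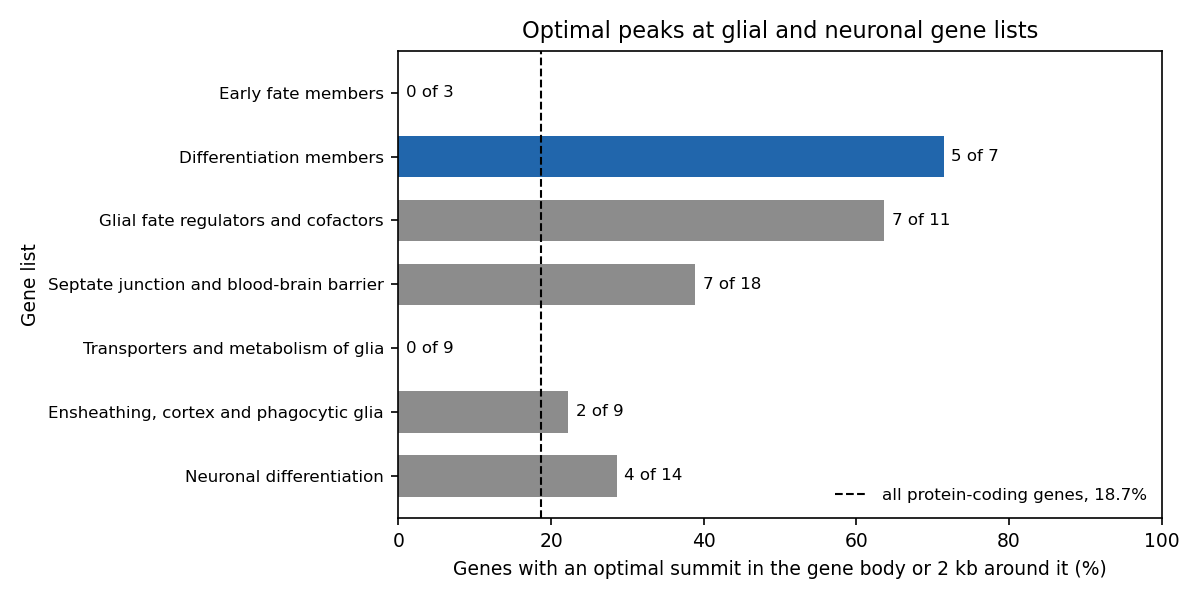
Share of genes whose locus holds an optimal summit (x axis, percent; locus is the gene with 2 kb on each side) for the early fate members, the differentiation members and 5 further gene lists (bars, with counts); the dashed line is the share of all protein-coding genes, 18.7%. The bars run from 0 of 3 for the early fate members and 0 of 9 for transporters to 5 of 7 for the differentiation members.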

How the data were processed

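ChIP-seq with an antibody against GFP was done on embryos that carry btn-eGFP, in 2 replicates of 1 group. Per the deposited README files, the authors made the candidate lists from alignments with a control, and took the optimal peaks from both replicates' lists and the pooled one. For the aligner, the peak caller and the IDR (irreproducible discovery rate) threshold, nothing is stated in the labels or README files. The signal column is the authors' deposited value per region. The summit is the region start plus the deposited offset, counted from 1. The 4 lists in dm3 were not used here, and nothing was converted between builds. Depth is unknown.

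All regions of the dm6 lists lie within the Release 6 chromosome lengths. Genes came from Ensembl release 115 (BDGP 6.54), and TSSs are the starts of protein-coding transcripts. A summit within 1 kb of a TSS of the gene counted as promoter. Each summit got 1 sequence class over all genes, with coding exons put before UTRs, then noncoding exons, introns and intergenic sequence. A replicate match is the strongest replicate candidate overlapping by at least 1 bp. Words were searched within 100 bp of the summit. Python 3.11.15, pandas 2.3.3 and scipy 1.17.1 were used, and the assignment, overlap and word steps were tested on simulated data.

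The members and gene lists were chosen with earlier results of these data known, and no test was made. Named genes are the 10 members, the gene with the TSS nearest to each optimal summit in a member locus, and up to 4 genes of each wider list with the strongest optimal peaks. Genes next to weaker candidates or to the nearest optimal peak were named after their values were seen. 1 name of the wider lists (Ced-6) matched no gene.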

Additional observations from a re-analysis of the deposited data

How the results depend on the processing

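Of 34 recomputed counts, 26 stayed within 1.5 times the count reported. Without a flank, 3 members (all of them differentiation genes) had an optimal summit in place of 5, with 3 summits in place of 6. At the stricter signal threshold of 105, the median of the optimal peaks, 3 members and 3 summits were left, and 2 members had one within 1 kb of a TSS; 2 had one with a TSS within 500 bp. All 6 glial peaks matched a candidate among the 5000 strongest of each replicate, in place of 2. By single replicates the rank of the strongest candidate ran from 14407 to 22069 at gcm, 2277 to 4481 at gcm2, 5442 to 19090 at repo, 212 to 242 at moody, 1703 to 2227 at Gli, 1062 to 1829 at nrv2, 4735 to 13877 at Nrx-IV, 449 to 496 at Gs2 and 433 to 1643 at wrapper, where the replicates' strongest regions need not be the same one. The strongest 2153 candidates of single replicates gave 4 or 5 members in the locus, 3 members within 1 kb of a TSS with either replicate, and 4 or 6 summits. Eaat1 has no pooled candidate and so no rank. Counting only summits whose nearest TSS is the member's own, an addition made after seeing the data, left 4 members and 4 summits, without wrapper and the flank peak of nrv2. The early fate count was 0 under every alternative run for it, namely 3 flanks, each replicate alone and the nearest TSS. The looser setting of the 5000 strongest candidates was not run for this count. In the gcm2 locus the strongest candidates, at ranks 4481 in replicate 2 and 2277 in replicate 3, lie within that number. The cause of these changes was not tested beyond the settings' own construction. No paired analysis was possible because there is 1 group. Depth is unknown, so a weak candidate cannot be told from one missed for lack of reads.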
